A study of Homo sapiens with 30 samples.

Results

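The genes described here are the collagen and laminin chain genes of A549 cells, 55 of the 26801 genes in the deposited expression table and of its 17648 protein-coding genes. They were chosen by symbol alone, as protein-coding rows named COL, a number, A and a number, or LAM, one of the letters A, B and C, and a number. This gave 44 collagen genes and 11 laminin genes, which were followed over 30 RNA-sequencing libraries in 10 groups of 3. A549 is an established line from a human lung adenocarcinoma. The groups cross a knockout of RSRP1, an arginine- and serine-rich nuclear protein, with a magnetic exposure and with 2 parts of the labels, iR and D3, that the labels leave unexplained and that are kept here as names.

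The wild-type groups were iR_WTA and iR_WTA_D3, and the knockout groups were KOA, iR_KOA and iR_KOA_D3. Each had 3 exposed libraries (EX, magnetic exposure labelled 2 H) and 3 unexposed libraries (NE). All wild-type groups carry the label iR, so the knockout without iR has no wild-type partner here. The labels do not say how many clones the knockout line represents, nor that libraries of a group came from separate cultures, so a p-value here measures the spread between samples only, and that spread may be technical. The labels give no field strength. RNA was enriched with oligo(dT), and levels are in FPKM, fragments scaled to gene length and to the mapped fragments of the library. Genes are set side by side per length, but the lengths used are not stated. Ratios and sums over genes thus depend on those lengths. A level per library cannot tell fewer expressing cells from less RNA per cell.

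Collagens are secreted proteins in which chains wind around each other into a triple helix. Fibrillar collagens (types I, II, III, V, XI, XXIV and XXVII) form the fibrils of the interstitial matrix, with types V and XI starting and limiting fibril growth. Type IV forms the sheet-like network of basement membranes, the thin layer under epithelia, from an α1/α2 chain pair in nearly every tissue and from α3, α4 and α5 chains in the kidney glomerulus and the lung alveolus. Laminins are cross-shaped trimers of 1 α, 1 β and 1 γ chain that organise the same layer and bind integrins and dystroglycan. In the lung, epithelial cells make most of the laminin with α3 and α5 chains, while most fibrillar collagen comes from fibroblasts.

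The 6 collagen IV genes lie in 3 head-to-head pairs, in which both genes start from a shared stretch and run apart. COL4A1 and COL4A2 on chromosome 13 start 126 bases from each other, COL4A4 and COL4A3 on chromosome 2 start 135 bases from each other, and COL4A6 and COL4A5 on chromosome X start 379 bases from each other (RefSeq, GRCh38.p14). Because the results below turn on how these pairs moved, 1 window of each pair is printed, 250 bases before to 50 bases after the start of the gene named, 5′ to 3′ on that gene's strand. Capitals mark 3 promoter motifs on either strand. The TATA box was searched as the letters TATAAA, the so-called CAT box as the letters CCAAT, and the GC box as the letters GGGCGG.
COL4A1 (chr13:110307108-110307407, minus strand): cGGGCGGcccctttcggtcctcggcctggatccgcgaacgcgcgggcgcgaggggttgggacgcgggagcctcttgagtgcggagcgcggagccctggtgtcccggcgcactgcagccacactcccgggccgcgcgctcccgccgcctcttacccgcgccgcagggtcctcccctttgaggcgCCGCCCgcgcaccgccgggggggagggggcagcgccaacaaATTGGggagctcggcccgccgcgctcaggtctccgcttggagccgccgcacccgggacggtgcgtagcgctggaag
COL4A3 (chr2:227164374-227164673, plus strand): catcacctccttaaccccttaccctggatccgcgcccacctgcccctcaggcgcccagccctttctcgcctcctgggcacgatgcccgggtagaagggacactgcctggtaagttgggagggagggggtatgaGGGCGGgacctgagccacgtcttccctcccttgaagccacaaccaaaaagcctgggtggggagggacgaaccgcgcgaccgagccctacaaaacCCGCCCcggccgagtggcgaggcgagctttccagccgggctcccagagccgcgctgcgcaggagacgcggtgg
COL4A5 (chrX:108439588-108439887, plus strand): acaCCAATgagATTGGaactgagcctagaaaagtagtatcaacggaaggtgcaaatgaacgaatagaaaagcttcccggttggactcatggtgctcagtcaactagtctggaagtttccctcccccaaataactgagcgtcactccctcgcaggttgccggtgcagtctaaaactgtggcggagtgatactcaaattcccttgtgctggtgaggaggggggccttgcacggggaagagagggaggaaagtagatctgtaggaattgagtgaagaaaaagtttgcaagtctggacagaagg
The COL4A1 window held 1 CCAAT and 2 GGGCGG matches, the COL4A3 window 2 GGGCGG matches and the COL4A5 window 2 CCAAT matches, with no TATAAA in any of them. Their G and C content was 76.7%, 67.7% and 49.3%, with 45, 24 and 8 CpG dinucleotides against a median of 14 over all 35116 RefSeq promoter windows of this length. Of those windows 11.5% held TATAAA, 34.6% CCAAT and 45% GGGCGG. A window was given for 20 of the 23 members tested, all but COL1A1, COL5A2 and COL6A1. In at least 1 of their windows, 3 of the 20 held TATAAA (COL18A1, COL6A2, COL7A1), 6 held CCAAT and 18 held GGGCGG. These are counts of genes, some with more than 1 window, so they are not like for like with the shares of single windows. Windows of head-to-head pairs also overlap, so 1 match can count for both genes. These matches describe the letters in the windows and were not tested for binding.

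The libraries were close in depth, with 34620432 to 38939336 reads recovered from the steps between FPKM values. RSRP1, the targeted gene, was 37.4 to 63.4 FPKM in the 12 wild-type libraries and 2.09 to 7.95 FPKM in the 18 knockout libraries, with no overlap. Of the 14 epithelial line markers present, 9 had a median of at least 1 FPKM, led by ALDH1A1, KRT8 and AKR1B10. The alveolar markers SFTPC, SFTPB and NKX2-1 stayed at or below 0.292 FPKM. AGER, also an alveolar marker, had a median of 0.702 FPKM and reached 1.29 FPKM. The keratin KRT19 had a median of 0.132 FPKM and ranged from 0.0194 to 22.8 FPKM. Of 11 fibroblast markers 3 had a median of at least 1 FPKM (VIM, S100A4 and TWIST2), which epithelial cancer lines also express, and the defining markers DCN, FAP, POSTN, PDGFRA, PDGFRB and PRRX1 stayed at or below 0.0527 FPKM. The other two, THY1 and LUM, had medians of 0.0469 and 0 FPKM and reached 1.88 and 0.648 FPKM. Markers of smooth muscle (1 of 5, ACTA2), endothelium (0 of 6) and immune cells (1 of 5, CD68) otherwise had medians under 1 FPKM. Among these TAGLN reached 2.86 FPKM and CDH5 1.295 FPKM.

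Of the 55 members 23 reached 1 FPKM in at least 3 libraries and were tested, 17 collagens and 6 laminins. The other 32 never rose above 0.412 FPKM, and 15 of them had at most 10 reads in every library. COL19A1 and COL6A5 were listed at 0 in all 30 libraries. The filter follows the values: COL11A1 reached it in wild-type libraries alone, and COL16A1, COL4A3 and COL4A4 in knockout libraries alone, so these 4 had to differ between genotypes and no count over the tested members stands for all 55. By family, 5 of 11 fibrillar, all 6 type IV, 2 of 5 type VI and 2 of 10 fibril-associated collagens were tested, as were COL7A1 and COL18A1. So were 2 of 5 laminin α and 3 of 4 laminin β genes and the γ gene LAMC1. None of the 4 transmembrane or 3 short-chain collagens was tested. The most abundant fibrillar collagen chains of fibroblasts were nearly missing, since COL1A2 and COL3A1 had at most 2 and 5 reads in any library.

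Fibrillar collagens split by genotype. COL11A1 (chromosome 1, 102876473 to 103108522, NCBI gene 1301), a chain that starts fibrils, was 14.2, 13.3 and 13.3 FPKM in iR_WTA_NE, 16.0, 14.7 and 14.9 in iR_WTA_EX, 29.5, 27.7 and 28.6 in iR_WTA_D3_NE and 31.8, 29.7 and 31.7 in iR_WTA_D3_EX. It was 0 in 17 of the 18 knockout libraries, and the other, a library of iR_KOA_D3_EX, held 1 read. The wild-type libraries held 3969 to 9408 reads of it. COL11A1 was therefore found in every wild-type library and rose with D3, while the knockout libraries sat at or under 1 read.

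COL5A1 (chromosome 9, 134641803 to 134844843, NCBI gene 1289), the regulatory α1 chain of type V, was 12.6, 11.6 and 12.0 FPKM in iR_WTA_NE, 11.9, 12.0 and 12.6 in iR_WTA_EX, 18.6, 18.4 and 19.0 in iR_WTA_D3_NE and 19.7, 20.0 and 17.0 in iR_WTA_D3_EX. Its levels were 1.64, 1.79 and 1.78 FPKM in KOA_NE and 1.77, 1.59 and 1.80 in KOA_EX, and 1.86, 1.91 and 2.29 FPKM in iR_KOA_NE, 1.87, 1.83 and 2.02 in iR_KOA_EX, 2.24, 2.85 and 2.32 in iR_KOA_D3_NE and 1.95, 2.12 and 2.15 in iR_KOA_D3_EX. The lowest wild-type library was 11.6 and the highest knockout library 2.85 FPKM. COL5A2, its usual partner chain, was 33.4, 32.8 and 31.7 FPKM in iR_WTA_NE, 34.1, 33.2 and 32.4 in iR_WTA_EX, 38.5, 37.3 and 38.9 in iR_WTA_D3_NE and 35.7, 36.6 and 37.9 in iR_WTA_D3_EX. In the knockout it was 29.3, 29.3 and 29.0 FPKM in KOA_NE and 30.5, 29.2 and 30.6 in KOA_EX, and 32.4, 32.4 and 31.1 FPKM in iR_KOA_NE, 33.3, 32.2 and 32.9 in iR_KOA_EX, 40.6, 41.7 and 40.2 in iR_KOA_D3_NE and 40.8, 38.9 and 41.2 in iR_KOA_D3_EX. The partner was thus at about the same level in both genotypes, with overlapping ranges of 31.7 to 38.9 FPKM in the wild type and 29.0 to 41.7 FPKM in the knockout. Per length, COL5A2 stood 2.71 ± 0.0986 times as high as COL5A1 in iR_WTA_NE and 16.0 ± 2.12 times as high in iR_KOA_NE (ratio ± SD, n = 3).

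The remaining fibrillar chains were lower. COL1A1, the α1 chain of type I, ranged over 1.12 to 3.71 FPKM in the wild type and 0.443 to 2.48 FPKM in the knockout. COL27A1, a fibrillar collagen of cartilage and other tissues, ranged over 2.35 to 4.16 FPKM and 1.73 to 3.34 FPKM. Both overlapped between genotypes.

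Collagen IV changed in composition as well as amount. COL4A1 (chromosome 13, 110148963 to 110307157, NCBI gene 1282) was 9.52, 9.06 and 9.01 FPKM in iR_WTA_NE, 9.98, 9.52 and 9.45 in iR_WTA_EX, 14.7, 13.9 and 14.7 in iR_WTA_D3_NE and 15.2, 14.7 and 13.7 in iR_WTA_D3_EX. Knockout libraries held 1.79, 1.98 and 1.81 FPKM in KOA_NE and 1.97, 1.99 and 1.82 in KOA_EX, and 2.60, 2.63 and 2.54 FPKM in iR_KOA_NE, 2.51, 2.40 and 2.43 in iR_KOA_EX, 1.62, 1.71 and 1.51 in iR_KOA_D3_NE and 1.59, 1.55 and 1.58 in iR_KOA_D3_EX. The wild-type libraries were all higher, and the D3 libraries were the highest in the wild type and the lowest in the knockout. COL4A2 (chromosome 13, 110307284 to 110513209, NCBI gene 1284), transcribed from the other side of the same stretch, was 53.3, 48.8 and 50.5 FPKM in iR_WTA_NE, 51.6, 52.4 and 51.3 in iR_WTA_EX, 75.2, 75.5 and 77.8 in iR_WTA_D3_NE and 77.7, 83.6 and 69.6 in iR_WTA_D3_EX. Its knockout levels were 19.7, 19.1 and 20.3 FPKM in KOA_NE and 19.1, 18.3 and 19.7 in KOA_EX, and 23.5, 23.7 and 24.4 FPKM in iR_KOA_NE, 23.5, 22.4 and 22.5 in iR_KOA_EX, 17.4, 17.8 and 16.1 in iR_KOA_D3_NE and 17.1, 15.7 and 15.4 in iR_KOA_D3_EX. It followed the same order. The ratio of COL4A2 to COL4A1 per length was 5.53 ± 0.119 in iR_WTA_NE and 5.28 ± 0.155 in iR_WTA_D3_NE, against 9.23 ± 0.343 in iR_KOA_NE and 10.6 ± 0.166 in iR_KOA_D3_NE (SD, n = 3). In recovered reads COL4A1 held 5167 to 8946 and COL4A2 11518 to 20975 in the wild-type libraries. Knockout libraries held 850 to 1515 reads of COL4A1 and 3517 to 5787 of COL4A2. The size of the FPKM ratio within a group depends on the gene lengths used, which are not stated.

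COL4A3, COL4A4 and COL4A5, which encode the chains of the glomerular and alveolar network, ran the other way. COL4A3 was 0.0851 to 0.460 FPKM in the wild type and 1.27 to 2.38 FPKM in the knockout. COL4A4 was 0.112 to 0.432 FPKM and 1.247 to 3.38 FPKM, and COL4A5 1.21 to 1.90 FPKM and 2.17 to 4.14 FPKM. None of these ranges overlapped. COL4A6, which starts 379 bases from COL4A5, did overlap, with 1.00 to 1.27 FPKM in the wild type and 0.896 to 1.34 FPKM in the knockout. COL4A6 also has a further promoter window inside the gene (chrX:108438373-108438672), away from COL4A5. A level per gene cannot tell which start was used. Summed over the 6 genes, collagen IV was 62.8 ± 2.66 FPKM in iR_WTA_NE and 32.7 ± 0.348 FPKM in iR_KOA_NE (SD, n = 3), so the rise of the 3 minor chains did not make up the lower sum. Strand is not stated, and reads of COL4A2-AS1 (up to 4.88 FPKM) and RHBDD1 (up to 3.41 FPKM) overlap COL4A2 and COL4A4.

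**Figure D1:**
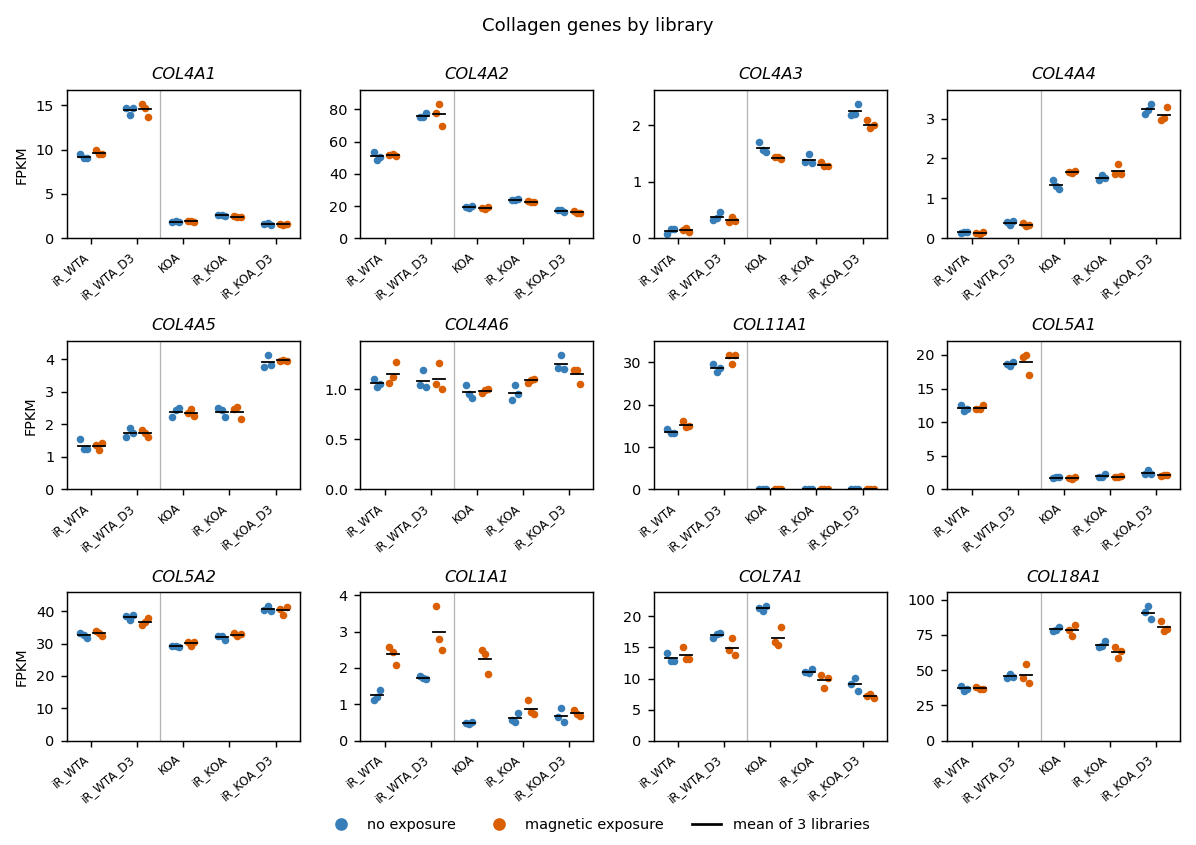
FPKM of 12 collagen genes in each of the 30 libraries (points), with the mean of each group of 3 (bar). The x axis gives the 5 backgrounds, wild type left of the grey line and knockout right of it, and each y axis starts at 0 with its own range. COL4A1 and COL4A2 are high in the wild type and highest with D3, COL4A3, COL4A4 and COL4A5 are high in the knockout, and COL11A1 is at 0 there.

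Among the other collagens, type VI forms beaded microfibrils. COL6A1 was 8.87, 7.61 and 8.10 FPKM in iR_WTA_NE, 7.63, 9.07 and 8.98 in iR_WTA_EX, 9.81, 9.83 and 10.2 in iR_WTA_D3_NE and 10.6, 12.5 and 9.59 in iR_WTA_D3_EX. Among knockout libraries it was 5.69, 5.55 and 6.05 FPKM in KOA_NE and 5.96, 5.58 and 6.37 in KOA_EX, and 5.95, 6.60 and 7.57 FPKM in iR_KOA_NE, 6.54, 5.85 and 6.12 in iR_KOA_EX, 5.58, 5.83 and 5.27 in iR_KOA_D3_NE and 4.91, 5.08 and 4.70 in iR_KOA_D3_EX. The lowest wild-type library, at 7.61 FPKM, was just above the highest knockout library, at 7.57 FPKM. COL6A2, the second chain of the trimer, was 4.77, 4.31 and 3.93 FPKM in iR_WTA_NE, 4.84, 4.86 and 5.07 in iR_WTA_EX, 5.49, 5.69 and 5.77 in iR_WTA_D3_NE and 5.57, 6.47 and 5.16 in iR_WTA_D3_EX. Knockout libraries held 1.82, 1.93 and 1.82 FPKM in KOA_NE and 1.75, 1.64 and 1.67 in KOA_EX, and 1.74, 1.55 and 1.67 FPKM in iR_KOA_NE, 1.497, 1.36 and 1.65 in iR_KOA_EX, 1.93, 1.87 and 1.40 in iR_KOA_D3_NE and 1.71, 1.66 and 1.55 in iR_KOA_D3_EX. Here the gap was wide. COL6A3, the third chain, was not tested and reached 0.0651 FPKM.

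COL7A1, the anchoring fibril collagen that ties basement membrane to the tissue beneath, was 14.1, 12.8 and 12.9 FPKM in iR_WTA_NE, 15.1, 13.1 and 13.2 in iR_WTA_EX, 16.6, 17.1 and 17.4 in iR_WTA_D3_NE and 14.6, 16.5 and 13.8 in iR_WTA_D3_EX. The knockout values were 21.4, 20.9 and 21.7 FPKM in KOA_NE and 15.8, 15.4 and 18.3 in KOA_EX, and 11.0, 10.8 and 11.5 FPKM in iR_KOA_NE, 10.6, 8.51 and 10.1 in iR_KOA_EX, 9.16, 10.0 and 7.98 in iR_KOA_D3_NE and 7.25, 7.56 and 6.87 in iR_KOA_D3_EX. The libraries without iR and without exposure were the highest of all, and the exposed knockout D3 libraries the lowest. COL18A1, a basement membrane collagen whose end piece is endostatin, was 38.9, 35.2 and 37.0 FPKM in iR_WTA_NE, 37.7, 37.0 and 37.0 in iR_WTA_EX, 44.7, 47.5 and 45.1 in iR_WTA_D3_NE and 44.1, 54.3 and 40.7 in iR_WTA_D3_EX. In the knockout it was 78.1, 78.6 and 80.8 FPKM in KOA_NE and 78.6, 74.4 and 81.8 in KOA_EX, and 66.7, 67.2 and 70.6 FPKM in iR_KOA_NE, 66.4, 58.3 and 63.9 in iR_KOA_EX, 91.0, 95.7 and 86.0 in iR_KOA_D3_NE and 84.9, 78.2 and 79.3 in iR_KOA_D3_EX. All knockout libraries exceeded all wild-type ones, and reads of SLC19A1 (up to 4.24 FPKM) overlap the gene. The fibril-associated COL12A1 was 2.77 to 4.04 FPKM in the wild type and 0.470 to 1.73 FPKM in the knockout, and COL16A1 0.407 to 0.637 FPKM and 0.660 to 1.97 FPKM, each without overlap.

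Laminin transcripts were dominated by the chains of the widely used α5, β1 and γ1 trimer, and the α3 and β3 chains, which anchor epithelia, were lower. LAMA3 was 14.2, 13.1 and 13.7 FPKM in iR_WTA_NE, 13.9, 13.7 and 13.4 in iR_WTA_EX, 19.3, 18.8 and 19.2 in iR_WTA_D3_NE and 18.4, 19.3 and 18.0 in iR_WTA_D3_EX. Knockout libraries held 8.91, 9.14 and 9.52 FPKM in KOA_NE and 10.3, 10.1 and 9.76 in KOA_EX, and 9.95, 10.3 and 10.3 FPKM in iR_KOA_NE, 9.66, 9.93 and 9.42 in iR_KOA_EX, 7.61, 7.65 and 7.33 in iR_KOA_D3_NE and 7.19, 7.38 and 7.18 in iR_KOA_D3_EX. All wild-type libraries were higher, and as for COL4A1 the D3 libraries were at the top of the wild type and the bottom of the knockout. LAMA5 was 36.5, 34.4 and 34.1 FPKM in iR_WTA_NE, 37.4, 37.3 and 35.6 in iR_WTA_EX, 42.2, 45.5 and 44.5 in iR_WTA_D3_NE and 40.5, 49.98 and 37.5 in iR_WTA_D3_EX. Knockout libraries held 40.5, 40.2 and 41.2 FPKM in KOA_NE and 36.6, 34.2 and 37.7 in KOA_EX, and 37.6, 37.7 and 40.5 FPKM in iR_KOA_NE, 38.3, 34.2 and 35.1 in iR_KOA_EX, 37.2, 38.3 and 35.4 in iR_KOA_D3_NE and 29.9, 28.4 and 29.4 in iR_KOA_D3_EX. The genotypes overlapped.

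LAMB1 (chromosome 7, 107923799 to 108003161, NCBI gene 3912), the most abundant β chain and the member with the highest FPKM of all laminins, was 67.1, 66.4 and 67.1 FPKM in iR_WTA_NE, 84.0, 80.4 and 75.2 in iR_WTA_EX, 78.1, 77.9 and 77.6 in iR_WTA_D3_NE and 94.2, 93.8 and 90.9 in iR_WTA_D3_EX. Its knockout levels were 57.4, 57.2 and 59.1 FPKM in KOA_NE and 71.9, 69.1 and 68.7 in KOA_EX, and 63.2, 62.8 and 65.3 FPKM in iR_KOA_NE, 72.3, 70.9 and 69.3 in iR_KOA_EX, 67.7, 67.5 and 64.8 in iR_KOA_D3_NE and 76.1, 73.8 and 71.3 in iR_KOA_D3_EX. In each of the 5 backgrounds all 3 exposed libraries exceeded all 3 unexposed ones. LAMB2 was 16.0, 13.9 and 14.8 FPKM in iR_WTA_NE, 15.8, 15.3 and 15.4 in iR_WTA_EX, 20.4, 20.6 and 19.0 in iR_WTA_D3_NE and 18.8, 21.2 and 18.6 in iR_WTA_D3_EX. Among knockout libraries it was 26.2, 25.5 and 27.3 FPKM in KOA_NE and 26.5, 24.7 and 26.3 in KOA_EX, and 17.8, 18.3 and 20.5 FPKM in iR_KOA_NE, 19.6, 17.3 and 19.1 in iR_KOA_EX, 35.5, 35.3 and 32.5 in iR_KOA_D3_NE and 32.9, 31.7 and 30.4 in iR_KOA_D3_EX. It was highest in the knockout D3 libraries. LAMB3 was 3.67, 3.59 and 2.91 FPKM in iR_WTA_NE, 3.70, 3.65 and 3.49 in iR_WTA_EX, 3.45, 3.77 and 3.62 in iR_WTA_D3_NE and 3.64, 3.33 and 3.14 in iR_WTA_D3_EX. The knockout values were 7.55, 7.66 and 7.96 FPKM in KOA_NE and 8.01, 7.83 and 8.71 in KOA_EX, and 5.74, 5.84 and 6.53 FPKM in iR_KOA_NE, 5.54, 5.28 and 6.40 in iR_KOA_EX, 8.23, 8.12 and 6.88 in iR_KOA_D3_NE and 6.81, 6.44 and 6.88 in iR_KOA_D3_EX. Every knockout library lay above every wild-type one.

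LAMC1, the γ chain of most laminins, was 44.9, 43.4 and 43.4 FPKM in iR_WTA_NE, 44.1, 44.2 and 44.1 in iR_WTA_EX, 49.9, 50.4 and 50.2 in iR_WTA_D3_NE and 46.8, 48.8 and 46.4 in iR_WTA_D3_EX. In the knockout it was 36.8, 37.0 and 36.9 FPKM in KOA_NE and 37.0, 37.6 and 37.0 in KOA_EX, and 39.5, 40.3 and 42.9 FPKM in iR_KOA_NE, 41.4, 43.3 and 41.0 in iR_KOA_EX, 43.5, 44.3 and 44.4 in iR_KOA_D3_NE and 42.5, 41.0 and 41.9 in iR_KOA_D3_EX. Its range was narrow and overlapped between genotypes. The α3 and β3 chains thus differed in direction between genotypes, with LAMA3 lower and LAMB3 higher in the knockout. The sum of the 11 laminins was 178 ± 4.03 FPKM in iR_WTA_NE and 179 ± 6.74 FPKM in iR_KOA_NE (SD, n = 3). With D3 it was higher in the wild type, at 215.2 ± 2.04 FPKM in iR_WTA_D3_NE and 197.7 ± 5.285 FPKM in iR_KOA_D3_NE.

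**Figure D2:**
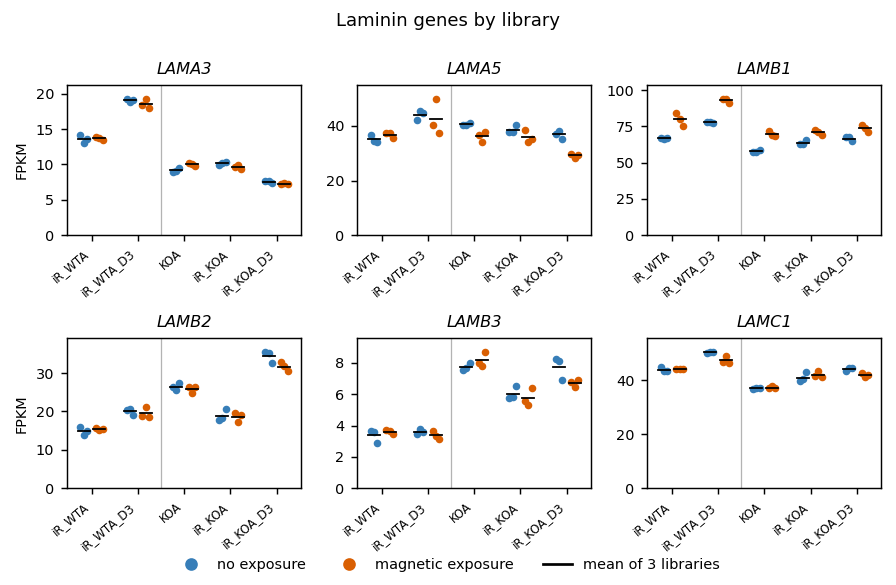
FPKM of the 6 tested laminin genes in each of the 30 libraries (points), with the mean of each group of 3 (bar). The x axis gives the 5 backgrounds, wild type left of the grey line, and each y axis starts at 0. LAMB1 is higher with exposure in all 5 backgrounds, LAMA3 is higher in the wild type, and LAMB3 is higher in the knockout.

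The first comparison asked how RSRP1 knockout and wild-type cells differed without exposure. In the iR libraries the network chains COL4A1 and COL4A2, the fibril-starting chains COL11A1 and COL5A1, COL12A1 and COL6A2 were lower in the knockout, while COL4A3, COL4A4, COL4A5, COL18A1, COL16A1 and LAMB3 were higher. Differences are of log2(FPKM + 1), knockout minus wild type, with their standard error, from limma over all 30 libraries with p-values adjusted (Benjamini-Hochberg) over 12086 genes and a threshold of 0.05. This scale understates changes of low genes. Of the 23 tested members 7 were higher and 12 lower, where 27.9% of all genes tested were higher and 37.4% lower. COL4A3, COL4A4 and COL16A1 among the higher reached the filter in knockout libraries alone, and COL11A1 among the lower in wild-type libraries alone. The filter thus favoured these calls, which do not count as separate evidence. The median difference of the members was −0.10, against −0.06 for all genes tested.

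COL5A1 differed by −2.12 ± 0.06 (adjusted p = 8.6e-20), from 12.1 ± 0.495 to 2.02 ± 0.240 FPKM (SD, n = 3). COL4A1 differed by −1.51 ± 0.04 (adjusted p = 1.77e-20), COL4A2 by −1.06 ± 0.05 (adjusted p = 1.08e-15) and COL6A2 by −1.01 ± 0.07 (adjusted p = 2.26e-12). COL12A1 fell by 1.33 on this scale, from 2.83 ± 0.0588 to 0.525 ± 0.0467 FPKM (adjusted p = 4.08e-17). For COL11A1 the adjusted p was 8.45e-30. No fold is given for it, since all 3 knockout libraries were at 0. On the higher side COL4A4 differed by 1.13 ± 0.05, COL4A3 by 1.07 ± 0.05 and COL18A1 by 0.86 ± 0.07, with LAMB3 at 0.68 ± 0.07, COL16A1 at 0.66 ± 0.06 and COL4A5 at 0.53 ± 0.06. The largest adjusted p of these 6 was 1.69e-08.

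With D3 the gap was wider for the main collagen IV pair. COL4A1 was 14.4 ± 0.447 FPKM in the wild type and 1.61 ± 0.0960 FPKM in the knockout, a difference of −2.56 ± 0.04 (adjusted p = 2.18e-25). COL4A2 differed by −2.09 ± 0.05 (adjusted p = 5.82e-22), COL5A1 by −2.50 ± 0.06 (adjusted p = 1.91e-21), COL6A2 by −1.29 ± 0.07 (adjusted p = 1.13e-14) and LAMA3 by −1.24 ± 0.04 (adjusted p = 1.83e-20). COL11A1 was again at 0 in the knockout (adjusted p = 5.35e-32). The 6 largest rises were COL4A4 at 1.60 ± 0.05, COL4A3 at 1.24 ± 0.05, COL18A1 at 0.97 ± 0.07, LAMB3 at 0.92 ± 0.07, COL4A5 at 0.84 ± 0.06 and LAMB2 at 0.75 ± 0.06, each with an adjusted p of at most 2.15e-11. In all 8 members were higher and 14 lower, where 24.8% of all genes were higher and 44.3% lower (31.2% and 34.3% with median-of-ratios scaling), and the medians were −0.25 for the members and −0.11 for all genes. These counts too include COL4A3, COL4A4, COL16A1 and COL11A1, which reached the filter only in the genotype where they were higher.

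**Figure D3:**
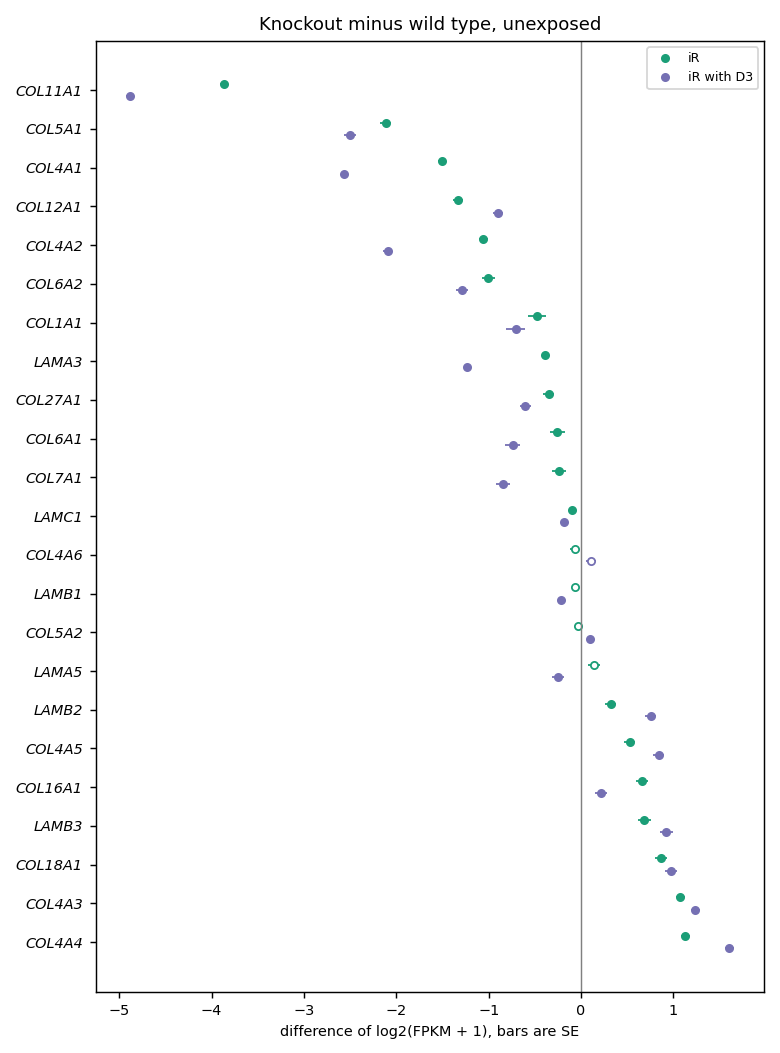
Difference of log2(FPKM + 1), knockout minus wild type, in unexposed libraries for the 23 tested members, without D3 (green) and with D3 (purple). Bars are the standard error of the fit over 30 libraries, and filled points passed the adjusted threshold of 0.05. COL11A1, at 0 in the knockout, lies far left, and COL4A4 and COL4A3 lie at the right end.

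Over all 12 wild-type and 18 knockout libraries, exposed or not, 14 of the 23 tested members had ranges that did not overlap. The wild type was above in 8 (COL11A1, COL12A1, COL4A1, COL4A2, COL5A1, COL6A1, COL6A2 and LAMA3) and the knockout in 6 (COL16A1, COL18A1, COL4A3, COL4A4, COL4A5 and LAMB3). The same count was not made over all genes tested, so whether this share is unusual is not known. The genotype tests in unexposed libraries, another measure, were passed by 65.3% and 69.1% of all genes without and with D3. COL11A1, COL16A1, COL4A3 and COL4A4 reached the filter only in the genotype where they were higher, which favoured their separation. Other markers moved with genotype in these libraries. The summed epithelial line markers were 6456 to 7483 FPKM in the wild type and 8156 to 8915 FPKM in the knockout, with no overlap. ALDH1A1 (median 3700 FPKM over all libraries), KRT8 (1109 FPKM) and AKR1B10 (1096 FPKM) led this sum. EPCAM and CDH1, with medians of 1.12 and 25.6 FPKM, weighed little in it. The summed smooth muscle markers, mostly ACTA2, were 15.6 to 22.9 FPKM in the wild type and 6.99 to 11.5 FPKM in the knockout. Of that list TAGLN ranged from 0.311 to 2.86 FPKM, and MYH11, DES and CNN1 stayed at or below 0.137 FPKM. The summed fibroblast markers overlapped, at 1270 to 1797 FPKM and 1170 to 1700 FPKM, and the endothelial sum, nearly all CDH5, was 0.0377 to 0.111 FPKM and 0.294 to 1.32 FPKM. DCN, FAP and POSTN were at or below 0.0196 FPKM in every library. The part of these markers in the member differences was not tested.

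A list of 62 genes that work with these chains was set beside them, covering hydroxylation and glycosylation, folding and export, processing and cross-linking, basement membrane partners and receptors. Of the list 45 were tested. Between genotypes in iR, 17 were higher and 17 lower, and with D3 16 were higher and 18 lower. This was 75.6% of the partners in both comparisons, where 65.3% and 69.1% of all genes passed. SPARC, which binds collagen IV in basement membranes, fell in the knockout from 1.92 ± 0.311 to 0.0786 ± 0.00805 FPKM (adjusted p = 4.92e-17), and with D3 from 4.76 ± 0.189 to 0.220 ± 0.0571 FPKM (adjusted p = 3.04e-21). FBLN1, a basement membrane fibulin, differed by 1.19 ± 0.05 without D3. ITGB4, the hemidesmosome integrin chain that binds the α3 laminin, differed by 0.99 ± 0.07 and, with D3, by 1.18 ± 0.07. NID2, which links laminin and collagen IV networks, differed by −1.25 ± 0.06 with D3 (adjusted p = 1.04e-15).

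The D3 comparison in the wild type showed a broad rise. COL11A1 went from 13.6 ± 0.524 to 28.6 ± 0.890 FPKM (SD, n = 3), a difference of 1.02 ± 0.04 (limma adjusted p = 1.21e-16). COL4A1 rose by 0.60 ± 0.04 (adjusted p = 1.94e-11), COL5A1 by 0.59 ± 0.06 (adjusted p = 3.78e-08) and COL4A2 by 0.57 ± 0.05 (adjusted p = 1.06e-09). LAMA3 rose by 0.46 ± 0.04 and LAMB2 by 0.40 ± 0.06, with adjusted p-values of 1.12e-10 and 3.69e-06. Of the 23 members 20 rose and none fell in the limma test, with no other at an unadjusted p under 0.05, where 22.3% of all genes rose and 26.3% fell. The medians were 0.30 for members and −0.01 for all genes. The sum over the 44 collagens went from 192 ± 7.77 to 269 ± 2.38 FPKM (SD, n = 3).

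In the knockout D3 went with rises and falls. COL4A2 fell by 0.46 (SE 0.05, adjusted p = 2.73e-08), COL4A1 by 0.46 (SE 0.04, adjusted p = 1.25e-09) and LAMA3 by 0.39 (SE 0.04, adjusted p = 9.36e-10) on the log2(FPKM + 1) scale. Smaller falls were those of COL16A1 at −0.35 ± 0.06, COL7A1 at −0.27 ± 0.08 and COL6A1 at −0.23 ± 0.08. The COL6A1 call (adjusted p = 0.0162) was lost in 4 of 14 alternatives, with adjusted p up to 0.129, among them the fits without iR_KOA_NE replicate 3 or iR_KOA_D3_NE replicate 3. LAMB2 rose from 18.9 ± 1.47 to 34.5 ± 1.69 FPKM (adjusted p = 7.69e-12) and COL12A1 from 0.525 ± 0.0467 to 1.64 ± 0.0935 FPKM (adjusted p = 4.48e-12). COL4A4 rose by 0.75 ± 0.05, COL4A5 by 0.54 ± 0.06, COL4A3 by 0.44 ± 0.05 and COL18A1 by 0.41 ± 0.07, each with an adjusted p of at most 1.44e-05. In all 12 members rose and 6 fell, where 19.2% of all genes rose and 34.5% fell, and the medians were 0.11 and −0.06. Over all genes this balance turned with scaling, to 27.7% rising and 24.4% falling with median of ratios and 27.1% and 25.1% with quantile normalization, while 13 members rose and 5 fell with either.

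The difference between these D3 effects was tested directly. It passed the threshold for 16 of the 23 members, 4 upward and 12 downward, where 17.5% of all genes passed. Among the 23, COL11A1, COL16A1, COL4A3 and COL4A4 reached the filter only in the genotype where they were higher. Their low levels in the other genotype hold down the D3 effect there on this scale. The filter thus favoured a difference for them, which does not count as separate evidence. The 4 upward, named after their values were seen, were COL4A4 (0.48 ± 0.07), LAMB2 (0.43 ± 0.08), COL12A1 (0.43 ± 0.08) and COL4A5 (0.31 ± 0.08). COL4A4 went with D3 from 0.151 to 0.391 FPKM in the wild type and from 1.52 to 3.23 FPKM in the knockout. Its relative rise was larger in the wild type, so the upward sign of COL4A4 depends on the pseudocount. The D3 effect of COL4A1 was lower in the knockout by 1.05 (interaction −1.05 ± 0.06, adjusted p = 4.68e-12), and that of COL4A2 gave −1.03 ± 0.07 (adjusted p = 1.34e-10). LAMA3 gave −0.85 ± 0.05 (adjusted p = 9.32e-12). Each of these 3 rose with D3 in the wild type and fell in the knockout. COL11A1 gave −1.02 ± 0.06 (adjusted p = 2.52e-12), which equals its wild-type rise because the knockout libraries were at 0. The genotype and D3 comparisons share their 4 unexposed iR groups, so their values are not separate evidence.

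**Figure D4:**
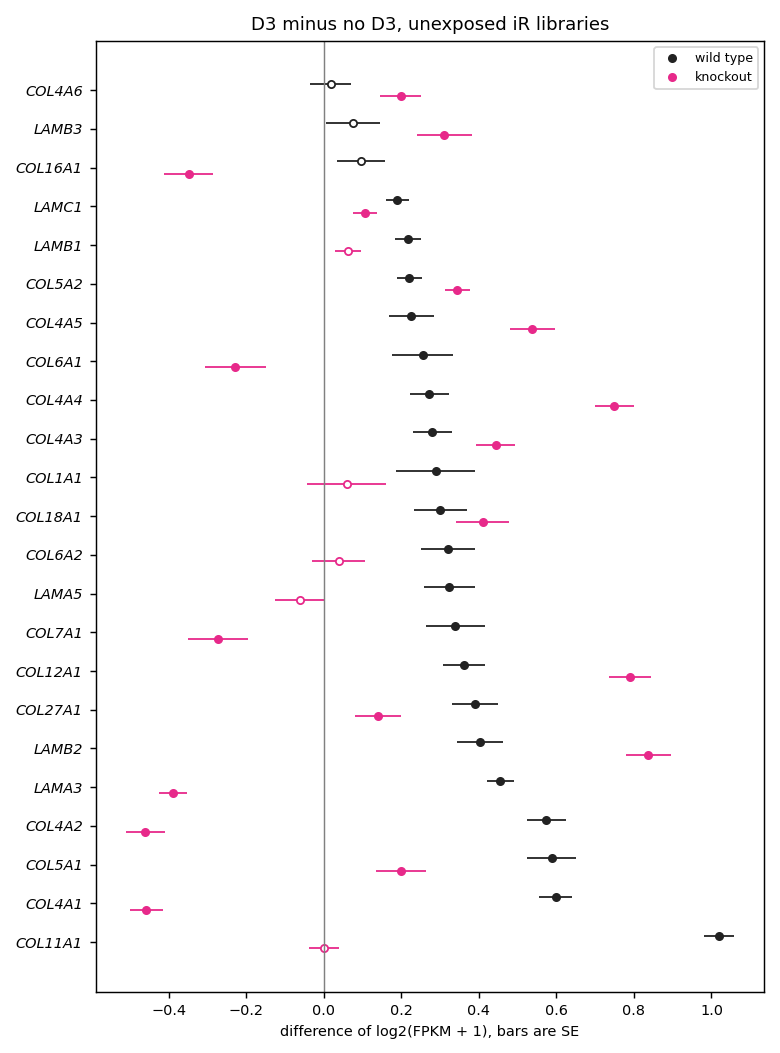
Difference of log2(FPKM + 1), D3 minus no D3, in unexposed iR libraries for the 23 tested members, in the wild type (black) and the knockout (pink). Bars are the standard error of the fit, and filled points passed the adjusted threshold of 0.05. COL4A1, COL4A2 and LAMA3 lie right of 0 in the wild type and left of 0 in the knockout.

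Among the 45 tested partner genes D3 went with 33 rises and 3 falls in the wild type and 28 rises and 5 falls in the knockout. The rises were 73.3% and 62.2% of the partners, where 22.3% and 19.2% of all genes rose. In the wild type SPARC rose by 0.99 ± 0.06, the cross-linking enzyme TGM2 by 0.92 ± 0.05 and NID2 by 0.86 ± 0.06. In the knockout BCAM, a receptor for the laminin α5 chain, rose by 0.87 ± 0.09, TGM2 by 0.84 ± 0.05 and the proline hydroxylase subunit P4HA3 by 0.71 ± 0.07. All 6 had adjusted p-values of at most 1.33e-08. The D3 effect differed between genotypes for 13 partners (28.9%, where 17.5% of all genes passed), 6 upward and 7 downward, led by NID2 (−0.94 ± 0.08), SPARC (−0.81 ± 0.08) and PCOLCE2 (−0.79 ± 0.09), an enhancer of procollagen cleavage, with adjusted p-values of 1.06e-08, 8.28e-08 and 3.63e-07.

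Magnetic exposure changed fewer members, and LAMB1 rose with it in all 5 backgrounds. In KOA LAMB1 went from 57.9 ± 1.03 to 69.9 ± 1.79 FPKM (SD, n = 3), a difference of 0.27 ± 0.03 (limma adjusted p = 6.42e-07). COL1A1 rose most, from 0.493, 0.443 and 0.511 FPKM in the unexposed to 2.48, 2.39 and 1.83 FPKM in the exposed libraries, a difference of 1.12 ± 0.10 (adjusted p = 2.77e-09). COL4A4 rose by 0.18 ± 0.05 (adjusted p = 0.00482) and LAMA3 by 0.11 ± 0.04 (adjusted p = 0.0113). COL7A1 fell from 21.4 ± 0.394 to 16.5 ± 1.59 FPKM (adjusted p = 0.000555). LAMA5 differed by −0.16 ± 0.07 (adjusted p = 0.0489), a call lost in 9 of 14 alternatives, with adjusted p up to 0.198. The call of LAMA3 was lost without KOA_EX replicate 1 (adjusted p = 0.06) or KOA_NE replicate 1 (adjusted p = 0.0635). In all 4 members rose and 2 fell, where 18.8% of all genes rose and 22.7% fell.

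In iR_KOA only LAMB1 passed, at 0.15 ± 0.03 (adjusted p = 0.00154), and no member fell, where 13.1% of all genes rose and 22.3% fell (15.4% and 16.1% with median-of-ratios scaling). With only the 2 groups compared in the fit its adjusted p was 0.0522, and 5 members had an unadjusted p under 0.05. COL1A1 was 0.561, 0.506 and 0.770 FPKM unexposed and 1.12, 0.790 and 0.723 FPKM exposed, a difference of 0.22 ± 0.10 (adjusted p = 0.0996).

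In iR_KOA_D3 LAMB1 rose by 0.14 ± 0.03 (adjusted p = 0.00131) and 6 members fell, where 17.3% of all genes rose and 27.8% fell. LAMA5 fell from 37.0 ± 1.49 to 29.2 ± 0.745 FPKM (adjusted p = 0.000227) and COL7A1 from 9.05 ± 1.02 to 7.22 ± 0.345 FPKM (adjusted p = 0.00382). LAMB3 differed by −0.18 ± 0.07 (adjusted p = 0.0408), COL5A1 by −0.17 ± 0.06 (adjusted p = 0.0322), COL18A1 by −0.17 ± 0.07 (adjusted p = 0.0452) and LAMC1 by −0.08 ± 0.03 (adjusted p = 0.0432). Deviations of libraries with the same replicate number correlated weakly in this background (0.115, 0.156 and 0.168), within the range over all comparisons (−0.325 to 0.306). Whether such libraries are paired is not known. With the replicate number as a block within this background (paired fit) the adjusted p was 0.0505 for COL18A1 and 0.0528 for LAMC1. This left 5 of the 7 past the threshold. The LAMB3 call was lost in 11 of 15 alternatives (adjusted p up to 0.172), LAMC1 in 11 (up to 0.305), COL18A1 in 9 (up to 0.182) and COL5A1 in 6 (up to 0.269). Without iR_KOA_D3_NE replicate 2 none of these 4 passed, and COL5A1 differed by −0.09. Median-of-ratios scaling left 1 rise and 2 falls and quantile normalization 1 rise and 3 falls.

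In the wild type iR_WTA, 4 members rose and none fell, where 11.4% of all genes rose and 17.2% fell. COL1A1 went from 1.12, 1.21 and 1.39 FPKM to 2.57, 2.45 and 2.09 FPKM, a difference of 0.59 ± 0.10 (adjusted p = 0.000105), and LAMB1 rose by 0.25 ± 0.03 (adjusted p = 4.6e-06). COL27A1 rose by 0.16 ± 0.06 (adjusted p = 0.0415), with overlapping libraries, and COL11A1 by 0.15 ± 0.04 (adjusted p = 0.00547). Without iR_WTA_EX replicate 1 neither of these last 2 passed, with adjusted p-values of 0.109 and 0.0574. The COL27A1 call was lost in 6 of 14 alternatives, with adjusted p up to 0.201. The COL11A1 call was also lost with only the groups compared (adjusted p = 0.0586) and with a pseudocount of 0.1 (adjusted p = 0.128). Its standard error is shared over all 10 groups, and its knockout groups, at or near 0, had almost no spread.

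In iR_WTA_D3 COL1A1 went from 1.79, 1.73 and 1.69 FPKM to 3.71, 2.79 and 2.49 FPKM, a difference of 0.54 ± 0.10 (adjusted p = 0.000163). LAMB1 rose by 0.25 ± 0.03 (adjusted p = 2.03e-06) and COL11A1 by 0.11 ± 0.04 (adjusted p = 0.0213). LAMC1 fell from 50.2 ± 0.274 to 47.3 ± 1.27 FPKM (adjusted p = 0.0276), a call lost under median-of-ratios scaling (adjusted p = 0.518). Of all genes 15.3% rose and 26.5% fell, but 19.9% and 19.5% with median-of-ratios scaling. COL11A1 was lost in 6 of 14 alternatives, with adjusted p up to 0.226, among them the fits without iR_WTA_D3_EX replicate 1 or 3 and without iR_WTA_D3_NE replicate 2 or 3.

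**Figure D5:**
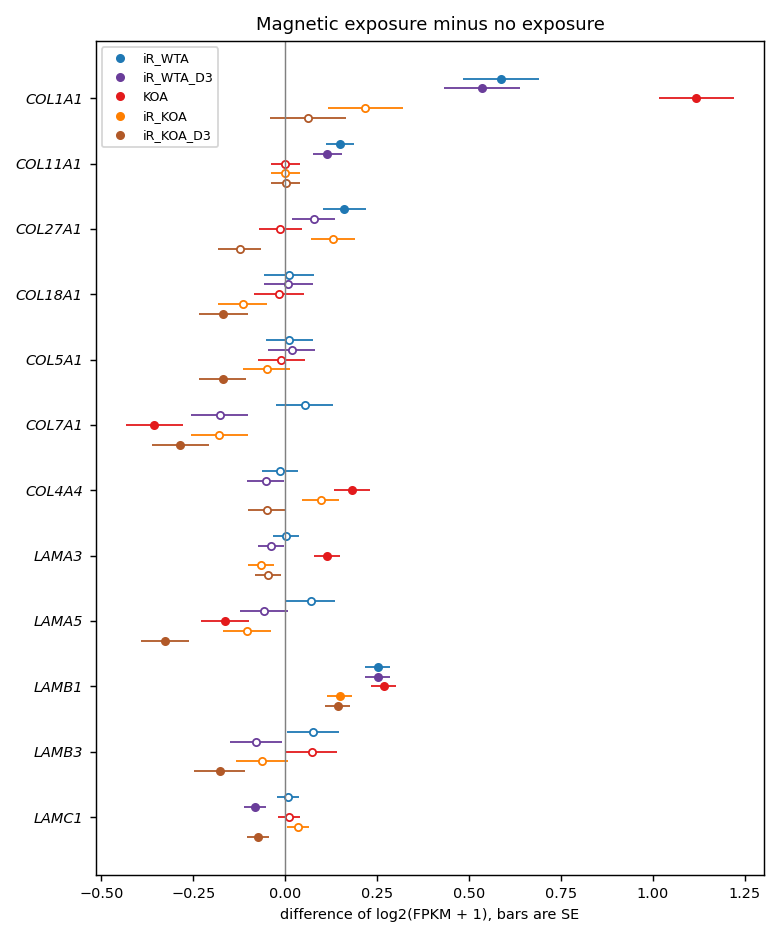
Difference of log2(FPKM + 1), exposed minus unexposed, for the 12 members that passed the threshold in at least 1 background, in the 5 backgrounds (colours). Bars are the standard error of the fit, and filled points passed the adjusted threshold of 0.05. LAMB1 is filled and right of 0 in all 5, and COL1A1 is filled in KOA, iR_WTA and iR_WTA_D3.

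Partners inside the secretory pathway rose in part with exposure. Of the 11 tested folding and export genes 3 rose in KOA, 6 in iR_KOA, 4 in iR_KOA_D3, 4 in iR_WTA and 5 in iR_WTA_D3 in the limma test. These were 27.3%, 54.5%, 36.4%, 36.4% and 45.5%. Of all genes 18.8%, 13.1%, 17.3%, 11.4% and 15.3% rose, and 22.7%, 22.3%, 27.8%, 17.2% and 26.5% fell, in the same order. Of the 13 tested hydroxylation and glycosylation genes 6 rose and 2 fell in KOA, 6 and 1 in iR_KOA, 3 and 1 in iR_KOA_D3, 7 and 0 in iR_WTA, and 7 and 1 in iR_WTA_D3. The falls were those of P3H4, a lysine hydroxylase partner, in KOA (−0.36 ± 0.07), iR_KOA (−0.34 ± 0.07), iR_KOA_D3 (−0.32 ± 0.07) and iR_WTA_D3 (−0.22 ± 0.07), and of the proline hydroxylase P3H1 in KOA (−0.23 ± 0.07), both named after their values were seen. SERPINH1, the collagen-specific chaperone HSP47, rose in every background, from 35.2 ± 1.24 to 104 ± 12.1 FPKM in KOA and from 58.3 ± 1.07 to 117 ± 10.9 FPKM in iR_WTA (SD, n = 3). Its differences were 1.52 in KOA, 0.76 in iR_KOA, 0.72 in iR_KOA_D3, 0.99 in iR_WTA and 0.82 in iR_WTA_D3, with a largest limma adjusted p of 1.09e-06. P4HA1, the main catalytic subunit of collagen proline hydroxylase, rose by 1.11 ± 0.07 in KOA, 0.57 ± 0.07 in iR_KOA, 0.45 ± 0.07 in iR_KOA_D3, 0.84 ± 0.07 in iR_WTA and 0.80 ± 0.07 in iR_WTA_D3. P4HA2 rose by 0.69 ± 0.07 in KOA, 0.32 ± 0.07 in iR_KOA, 0.59 ± 0.07 in iR_WTA and 0.23 ± 0.07 in iR_WTA_D3, and was at 0.16 ± 0.07 in iR_KOA_D3 (adjusted p = 0.0721). The lysine hydroxylase PLOD1 rose in all 5 backgrounds, by 0.19 in iR_KOA_D3 to 0.47 in iR_WTA. On the other side BCAM fell in iR_KOA (−0.55 ± 0.09) and iR_KOA_D3 (−0.66 ± 0.09), where ITGB4 fell too (−0.50 ± 0.07). Of the 45 partners 12 rose and 8 fell in KOA, 14 and 5 in iR_KOA, 8 and 10 in iR_KOA_D3, 13 and 0 in iR_WTA, and 13 and 7 in iR_WTA_D3. The share of partners past the threshold was thus 44.4%, 42.2%, 40%, 28.9% and 44.4%, beside 41.5%, 35.3%, 45.1%, 28.6% and 41.8% of all genes in the same order.

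Whether exposure effects differed between backgrounds was tested with 5 interactions. The exposure effect of COL1A1 was lower in iR_KOA than in KOA (−0.90 ± 0.14, adjusted p = 0.000224), as was that of LAMA3 (−0.18 ± 0.05, adjusted p = 0.0326), and 5.08% of all genes passed. The call of LAMA3 was lost in 11 of 20 alternatives, with adjusted p up to 0.116. Of the partners 8.89% differed, 1 upward and 3 downward, the latter SERPINH1 (−0.76 ± 0.13), P4HA1 (−0.54 ± 0.10) and P4HA2 (−0.37 ± 0.10). No member passed for the difference between genotypes in iR, where 0.538% of all genes passed, nor with D3, where 2.38% did. None passed for the difference between D3 and no D3 in iR_KOA (4.14% of all genes) or in iR_WTA (1.67%). In these 4 limma tests 5, 6, 5 and 2 members had an unadjusted p under 0.05, and no partner passed. The COL1A1 effect differed between genotypes by −0.47 ± 0.14 with D3 (adjusted p = 0.0901), so a genotype difference in its response was not shown.

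The label iR could be compared in the unexposed knockout. The anchoring fibril gene COL7A1 was lower with iR, at 11.1 ± 0.334 FPKM against 21.4 ± 0.394 FPKM (SD, n = 3, limma adjusted p = 2.11e-09). COL27A1 differed by −0.55 ± 0.06 (adjusted p = 6.61e-08) and LAMB2 by −0.46 ± 0.06 (adjusted p = 1.01e-06), with LAMB3 at −0.31 ± 0.07, COL16A1 at −0.26 ± 0.06 and COL18A1 at −0.21 ± 0.07. The COL18A1 call (adjusted p = 0.0148) was lost without KOA_NE replicate 3 (adjusted p = 0.0523) or iR_KOA_NE replicate 1 (adjusted p = 0.0545). COL4A1 rose by 0.33 ± 0.04 and COL4A2 by 0.26 ± 0.05, and LAMC1, LAMB1, LAMA3 and COL5A2 rose by 0.13 to 0.14. Of the 23 members 6 rose and 6 fell, where 18.7% of all genes rose and 19.8% fell, and the median difference of the members was −0.0024. Of the 45 partners 5 rose and 20 fell (44.4%), led by BCAM (−0.79 ± 0.09), P3H4 (−0.68 ± 0.07) and ITGB4 (−0.63 ± 0.07).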

How the data were processed

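Polyadenylated RNA of A549 cells was sequenced in 30 libraries, 3 in each of 10 groups taken from the sample titles. Reads were handled with fastp, HISAT2 and HTSeq on GRCh38, per the submitters' processing notes, which give no versions. Annotation, strand setting and gene lengths are not stated there. The authors deposited 1 FPKM value per gene and library. Within a library FPKM removes depth and gene length, but not a shift in composition. For all 26801 genes the values of every library were whole numbers of reads within 0.01, and these gave the depth of 34620432 to 38939336 reads (highest to lowest 1.125). Recovered reads were used for depth and detection, and no count model was run on them, since the deposited unit is FPKM. The table has 6 other value columns whose names fit no sample, and they were left out.

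The 12086 genes that reached 1 FPKM in 3 or more libraries were tested as log2(FPKM + 1), pseudocount 1, with limma 3.58.1 in R 4.3.3. This is a moderated test with a mean-variance trend over 10 groups and 20 residual degrees of freedom, two-sided and adjusted by Benjamini-Hochberg within each of the 16 comparisons. The fit was tested on simulated data. Of the 56 genes that the rule finds, 1 is not reported here, and the members are the other 55. The members, gene lists and rules were chosen with earlier results of these data known. Every library's value is given for members whose mean reached 5 FPKM in a group (15 genes). Of the members past the threshold the 6 largest rises and falls are named (4 in interactions), and 3 of the partner list. Members described by range are named for their family.

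Alternatives were a pseudocount of 0.1, no filter or a mean filter, 2 scalings, no trend, only the groups compared, a replicate block and leaving out each library. Whether equal replicate numbers pair libraries was checked by correlating deviations from the group means. Of 30 correlations (−0.325 to 0.306) 11 exceeded 0.1, and all 3 did so only for exposure in iR_KOA_D3 (0.115, 0.156 and 0.168), where the paired fit is given too. Positions and promoter windows are from RefSeq (GRCh38.p14), found for all 55 members by position, and were computed with Python 3.11.15 and pandas 2.3.3.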

Additional observations from a re-analysis of the deposited data

Results flagged for a closer look

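In 6 results the effect of one factor differed between backgrounds by the interaction term of the limma fit (Benjamini-Hochberg adjusted over 12086 genes). The D3 effect on COL4A1 was 0.60 in the wild type and −0.46 in the knockout, a difference of −1.05 (adjusted p = 4.68e-12). For COL4A2 the effects were 0.57 and −0.46, a difference of −1.03 (adjusted p = 1.34e-10). For LAMA3 they were 0.46 and −0.39, a difference of −0.85 (adjusted p = 9.32e-12). COL11A1 differed by −1.02 (adjusted p = 2.52e-12), with all 6 unexposed iR knockout libraries at 0. The exposure effect on COL1A1 was 1.12 in KOA and 0.22 in iR_KOA, a difference of −0.90 (adjusted p = 0.000224). For LAMA3 it was 0.11 and −0.07, a difference of −0.18 (adjusted p = 0.0326). Why these effects differ was not tested.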

How the results depend on the processing

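No named value changed direction in 1188 recomputed values of 82 named results. Of the 82, 68 kept their side of the threshold in every alternative run and 14 lost it at least once, 12 exposure results, COL6A1 with D3 in the knockout and COL18A1 with iR. LAMB1 in iR_KOA lost it only with the groups compared alone, and the exposure calls of COL1A1 and COL7A1 did not lose it. The cause of these changes was not tested.

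Counts of members past the threshold moved by over 1.5 times as follows. Exposure in iR_KOA gave 1, but 2 with a pseudocount of 0.1, 4 with quantile normalization, 0 with only the groups compared, and 1 to 2 when a library was left out (2 without iR_KOA_EX replicate 1 or 3). Exposure in iR_KOA_D3 gave 7, but 4 with quantile normalization, 3 with scaling by median of ratios, 4 with the replicate block over all libraries, 5 with the replicate block within that background, chosen after seeing the data, and 3 to 6 when a library was left out (4 without EX replicate 2 or 3 or NE replicate 1, 3 without NE replicate 2). Exposure in iR_WTA gave 4, but 2 with only the groups compared and 2 to 5 with a library left out (2 without EX replicate 1). Exposure in iR_WTA_D3 gave 4, but 7 with no filter, 2 with only the groups compared and 2 to 6 with a library left out (2 without EX replicate 1 or NE replicate 2 or 3). The genotype comparison in iR gave 19, and 30 with no filter, where more members were tested. Among interactions, exposure by genotype with D3 gave 0, but 1 with no filter and 0 to 3 with a library left out (3 without iR_WTA_D3_EX replicate 3). Exposure by D3 gave 0 to 1 in iR_KOA (1 without iR_KOA_NE replicate 3) and 0 to 1 in iR_WTA (1 without iR_WTA_D3_EX replicate 2). Exposure by iR gave 2, but 1 under quantile normalization, 1 under median-of-ratios scaling, 1 with only the groups compared and 1 to 2 with a library left out (1 without replicate 1 or 2 of KOA_EX or KOA_NE, replicate 1 or 3 of iR_KOA_EX, or replicate 2 or 3 of iR_KOA_NE).

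The replicate block over all libraries changed no other count by over 1.5 times (5 in place of 6 for exposure in KOA, where LAMA5 had an adjusted p of 0.0568). Scaling moved the split of rises and falls among members past the threshold by over 10 percentage points for exposure in KOA (4 and 1 in place of 4 and 2), iR_KOA_D3 (1 and 2 or 1 and 3 in place of 1 and 6) and iR_WTA_D3 (3 and 0 in place of 3 and 1). Among all genes it did so for exposure in iR_KOA and iR_WTA_D3, genotype with D3 and D3 in the knockout. Rises then outnumbered falls among all genes for D3 in either genotype and for iR under both scalings, and for exposure in iR_WTA_D3 under median of ratios, where falls had been more. No scaling moved the median of all genes by over 0.1. Depth limits the 15 members with at most 10 reads, for which a difference was not detectable.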
